A study of Mus musculus with 9 samples.

Results

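The genes described here encode the force-generating and heart-secreted proteins of muscle and their non-muscle relatives, and were selected by gene symbol. Included were the myosin light chains (*Myl*), myosin heavy chains (*Myh*), troponins (*Tnnc*, *Tnni*, *Tnnt*), tropomyosins (*Tpm*), myosin-binding proteins C (*Mybpc*) and myomesins (*Myom*), together with *Acta1*, *Acta2*, *Actc1*, *Actn2*, *Ttn*, *Nppa*, *Nppb*, *Des*, *Tagln* and *Cnn1*. The pattern for *Tnni* also took in *Tnni3k*, which encodes a heart kinase that binds cardiac troponin I. The selection gave 57 probes under 41 gene symbols, of the 25697 probes and 18120 symbols on the array. No measured value enters these symbols, but the set was chosen on earlier results of the same arrays, so its counts describe the set and are not independent evidence. RNA was hybridized from E10.5 CD-1 mouse embryos, the stage at which the otic vesicle (OV), the precursor of the inner ear, can be dissected whole. There were 3 arrays of OV, 3 of periotic tissue, which held the mesenchyme and hindbrain around the vesicle, and 3 of embryo-minus-otic, the embryos left after the otic regions had been taken off. The labels name no allele and no treatment for any tissue, and each array held RNA pooled from dissected embryos. The embryos came from 3 litters, and which litter went into which pool is not stated. The embryo-minus-otic pools are mixtures of all other organs, with the heart, somites, vessels and liver bud among them.

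Striated muscle shortens when myosin heavy chains, each carrying an essential and a regulatory light chain, pull on actin filaments. Calcium releases the filaments by binding troponin C, which moves troponins I and T and tropomyosin. The heart, skeletal muscle and smooth muscle use different gene copies of the same parts, and every cell has a non-muscle set for division and shape change. At midgestation the heart already beats, the first skeletal muscle cells form in the somites, and vessel walls gain their first smooth muscle cells. Atrial and ventricular light chains, alpha-cardiac actin and natriuretic peptides are the usual marks of heart muscle cells, and the embryonic heart also uses genes later named for skeletal or smooth muscle, such as *Acta1*, *Acta2* and *Tnni1*.

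Each member was put in 1 of 5 isoform classes by its usual site of use in the adult. The cardiac class had 13 symbols and 17 probes, the skeletal class 12 symbols and 15 probes, the smooth muscle class 4 symbols and 6 probes, and the non-muscle class 5 symbols and 8 probes. A further class of 7 symbols and 11 probes is shared among muscle types. A level is the deposited average signal on the log2 scale after quantile normalization over the 9 arrays, and probes differ in sensitivity, so each probe was compared only with itself between tissues. A difference is a difference of group means in log2 units, and *q* is the adjusted p of limma's moderated test over all 25697 probes, with a call at *q* below 0.05. A probe was above background on an array when its deposited detection p-value, which ranks it against negative control beads, was below 0.01. Where the lower group had no array above background, only a minimum fold Δ could be given, written as at least. For this minimum, each array of the lower group counted with the probe's level or with the dimmest level that was above background on that array, whichever was larger. A minimum is not comparable with a fold Δ, and a minimum lower than a fold Δ given with all arrays does not show a smaller difference.

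Between 43.9% and 47.3% of all probes were above background on each array. Otic vesicle marker genes were higher in OV than in both other tissues for 11 of 17 probes, *Oc90* (an otolith protein gene) and *Fbxo2* among them, and 6 of the 17 were above background on no OV array. Pan-epithelial genes were higher in OV for 4 of 4 probes. Of all probes, 5.89% were called higher in OV than in embryo-minus-otic and 5.07% higher than in periotic tissue. Hindbrain and periotic genes were higher in periotic tissue than in OV for 6 of 12 probes, where 5.15% of all probes were called. Those of *Hoxa2*, *Hoxb2*, *Olig3* and *Egr2* were among them. *Twist1* (log2 difference 0.0060) and the *Prrx1* probes above background (0.20, -0.077 and -0.078) were not called, so these genes did not separate periotic tissue from OV. OV replicate 1 stood apart from the other OV arrays in the contractile genes. It had 21 of the 57 probes above background, compared with 11 on OV replicate 2 and 9 on OV replicate 3, and in the cardiac class it had 8 of 17 compared with 1 and 0. Its summed otic marker intensity was 7873, below the 8560 and 8429 of the other OV arrays. Called differences from OV are therefore given with and without this array, in the text of the gene or, for the rest, gathered after the non-muscle genes.

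Of the 57 probes, 33 (28 symbols) were above background throughout 1 or more tissues, as were 46.1% of all probes on the array. All 33 were so in embryo-minus-otic, 12 in periotic tissue and 8 in OV. Another 22 were above background on none of the 9 arrays, and 2 were above it on some arrays of a tissue only. Embryo-minus-otic was higher than OV for 28 of 57 contractile probes (49.1%), where 5.51% of all probes were called higher. It was lower for 1, *Myh9*, where 5.89% of all probes were called lower. Against periotic tissue, embryo-minus-otic was again higher for 28 probes, where 2.95% of all probes were called, and lower for 0, where 2.86% were called. At an unadjusted p below 0.05, limma gave the same count of 0 lower in embryo-minus-otic than in periotic tissue, and 32 higher. Periotic tissue was higher than OV for 1 probe, of *Tpm2*, where 5.15% of all probes were called, and lower for 2, of *Tpm1* and *Myh9*, where 5.07% were called. The median difference over the 57 probes was 0.31 for embryo-minus-otic against OV, 0.36 for embryo-minus-otic against periotic tissue and 0.0011 for periotic tissue against OV, beside medians over all probes of -0.0043, -0.0066 and 3.7e-05. These comparisons share arrays, so their counts are not independent of each other. Fewer muscle cells in a tissue and less muscle RNA per cell cannot be told apart in these pools.

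By class, embryo-minus-otic was higher than OV for 12 of 17 cardiac probes, 6 of 15 skeletal probes, 7 of 11 shared probes, 3 of 6 smooth muscle probes and 0 of 8 non-muscle probes (0 also at an unadjusted p below 0.05 by limma). The same class counts were found against periotic tissue. Median differences from OV were 1.93 in the cardiac class, 0.84 in the shared class, 1.15 in the smooth muscle class, 0.11 in the skeletal class and -0.040 in the non-muscle class. These medians are over all probes of a class, at background or not, so they depend on how many were detected. Probes above background throughout a tissue were 11 of 17 cardiac, 8 of 11 shared, 3 of 6 smooth muscle (all *Acta2*) and 6 of 15 skeletal. The skeletal median was the value of *Tnnt3*, above background on no array. The 6 detected skeletal probes ran from 0.63 to 3.40. Without OV replicate 1 the count of higher probes stayed at 28.

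**Figure D1:**
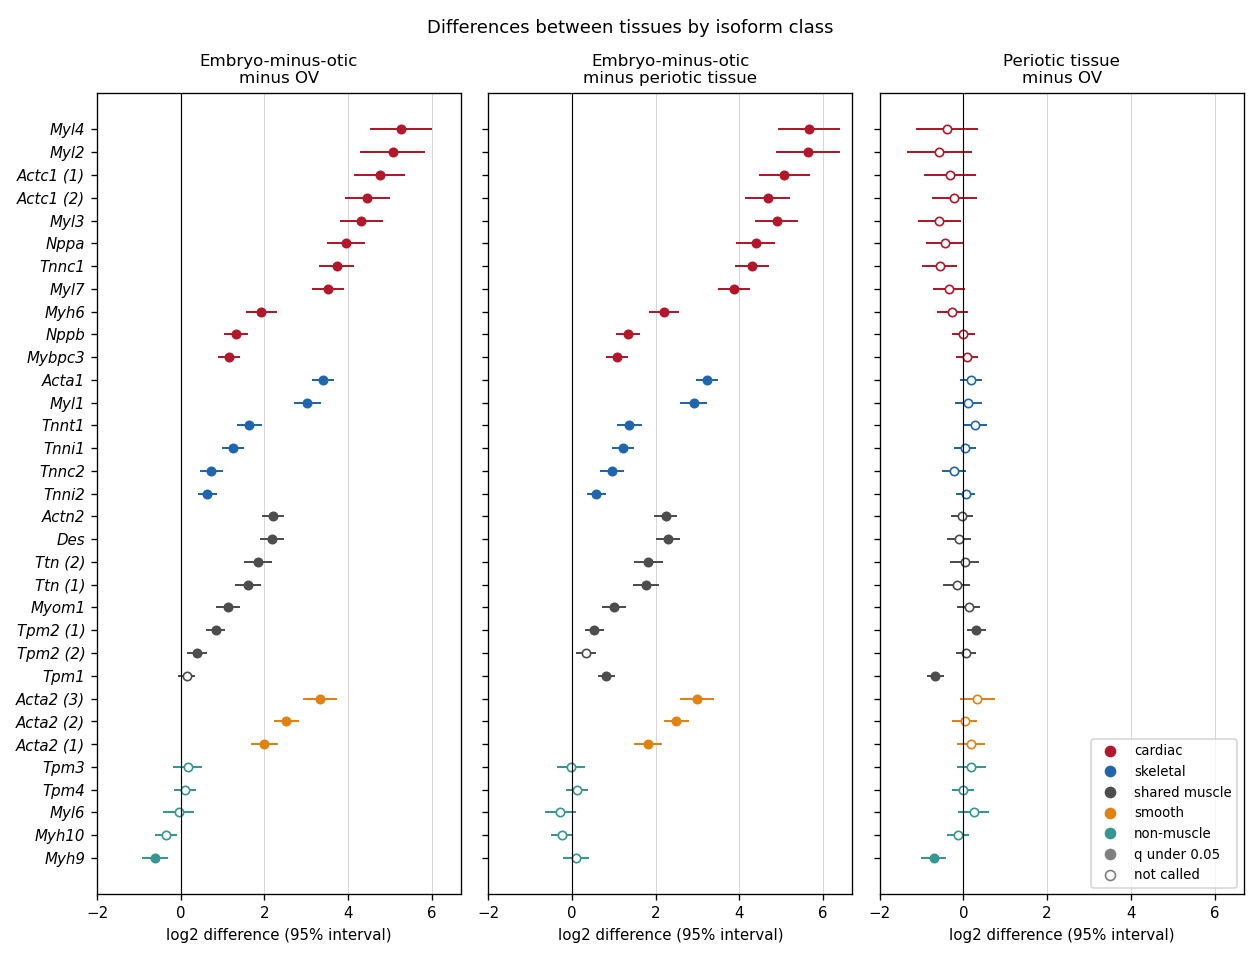
Difference in normalized log2 intensity between tissues (x axis, log2 units, points with 95% intervals) for the 33 contractile probes above background on all arrays of a tissue (y axis), coloured by isoform class, with filled points for *q* below 0.05. Cardiac points reach 5.28 against OV and 5.66 against periotic tissue, the non-muscle points lie near 0 apart from *Myh9* in the OV comparisons, and periotic tissue minus OV shows 3 filled points.

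Promoters of members that were higher in embryo-minus-otic are shown because the serum response factor, which binds the CArG box, is a known regulator of actin and other contractile genes. RefSeq promoter sequences on build GRCm38.p6, from 250 bases before to 50 bases after the start, were matched for 36 of the 41 symbols, in 41 windows. A gene counted once, if any of its windows held the letters searched for. *Tnni2*, *Tagln*, *Tnnt3*, *Myh11* and *Myom2* were not matched. A CArG box on either strand was found for 7 of 36 member genes (19.4%), *Acta1*, *Actc1*, *Myh4*, *Myl3*, *Myl6*, *Myl7* and *Myom1*, and for 1.81% of all 27025 genes searched. Of the 22 matched symbols with a probe higher in embryo-minus-otic than OV, 5 held one, and their 150 bases before the start are given 5′ to 3′ on the gene's strand with the CArG box in capitals. The sequences lie at chr2:114052876-114053025 (minus strand) for *Actc1*, chr8:123894776-123894925 (minus) for *Acta1*, chr9:110763528-110763677 (plus) for *Myl3*, chr11:5898783-5898932 (minus) for *Myl7* and chr17:71019407-71019556 (plus) for *Myom1*.
Actc1: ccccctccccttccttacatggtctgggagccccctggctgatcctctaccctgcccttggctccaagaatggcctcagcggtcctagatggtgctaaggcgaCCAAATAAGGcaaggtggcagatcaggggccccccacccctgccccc
Acta1: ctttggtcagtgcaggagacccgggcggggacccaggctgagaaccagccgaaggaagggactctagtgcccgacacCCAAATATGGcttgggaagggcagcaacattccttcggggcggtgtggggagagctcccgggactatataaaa
Myl3: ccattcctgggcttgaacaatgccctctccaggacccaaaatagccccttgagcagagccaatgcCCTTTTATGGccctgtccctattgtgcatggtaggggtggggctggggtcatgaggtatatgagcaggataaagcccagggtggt
Myl7: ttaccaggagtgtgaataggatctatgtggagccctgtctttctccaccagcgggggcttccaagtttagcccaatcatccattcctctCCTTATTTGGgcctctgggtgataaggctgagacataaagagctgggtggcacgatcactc
Myom1: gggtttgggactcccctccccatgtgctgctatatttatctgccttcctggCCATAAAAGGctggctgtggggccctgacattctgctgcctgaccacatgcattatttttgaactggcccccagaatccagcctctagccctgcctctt
The first base of the box lay at -47 from the start in *Actc1*, -73 in *Acta1*, -85 in *Myl3*, -61 in *Myl7* and -99 in *Myom1*, so the boxes differed in both letters and distance. The motif was also in the windows of *Myl6*, a non-muscle light chain gene that was not called in any comparison, and of *Myh4*, an adult myosin gene above background on no array. A MEF2 site was found for 6 of 36 member genes (16.7%) and for 3.7% of all genes, and of the 22 symbols higher in embryo-minus-otic 2 held it, *Mybpc3* and *Ttn*. The letters TATAAA were found for 36.1% of member genes and 15.7% of all, and the E-box letters CAGCTG for 38.9% and 18.3%. No CArG box overlapped a MEF2 site in the member windows, while TATAAA on the other strand overlapped the MEF2 sites of *Myh1*, *Myh4* and *Myh8*. A match describes these letters and is not a bound site.

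The cardiac class had the highest median difference from OV of the 5 classes, over all probes of each class, at background or not. *Myl4*, the essential light chain of the atrium and of embryonic muscle, measured 11.84, 11.55 and 11.69 on the embryo-minus-otic arrays and 5.91, 6.23 and 5.97 on the periotic arrays. On the OV arrays it measured 7.65, 5.88 and 5.73. The embryo-minus-otic arrays lay far above all others, and OV replicate 1 lay apart from its group. Its mean was 38.7-fold higher in embryo-minus-otic than in OV (log2 difference 5.28, SE 0.336, *q* = 2.33e-08), and at least 44.3-fold higher without OV replicate 1.

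*Myl2*, the regulatory light chain of the ventricle and of slow skeletal muscle, had the same layout. It measured 11.43, 11.08 and 11.46 in embryo-minus-otic, 5.83, 5.50 and 5.71 in periotic tissue, and 7.53, 5.59 and 5.65 in OV. The difference from OV was 5.06 (SE 0.350, fold Δ 33.4, *q* = 5.71e-08), and the fold Δ was at least 34.3 without OV replicate 1. No periotic array was above background, and the fold Δ over periotic tissue was at least 35.2.

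*Myl3*, on chromosome 9, is the ventricular essential light chain and carries the third of the CArG boxes shown. It measured 10.76, 10.38 and 10.48 in embryo-minus-otic, 5.48, 5.76 and 5.69 in periotic tissue, and 7.01, 5.79 and 5.88 in OV. It was 19.9-fold higher than in OV (log2 difference 4.31, SE 0.230, *q* = 3.51e-09), at least 20.0-fold higher without OV replicate 1, and at least 20.5-fold higher than in periotic tissue. *Myl7*, the atrial regulatory light chain, averaged 9.59 ± 0.15 (SD, n = 3) in embryo-minus-otic, 5.72 ± 0.092 in periotic tissue and 6.07 ± 0.45 in OV, and the fold Δ over OV was 11.5 (*q* = 1.09e-09 by limma), or at least 10.3 without OV replicate 1. Light chains named for atrium and for ventricle were thus both in the set of higher genes, 4 of 4.

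*Actc1*, the alpha-actin of the heart on chromosome 2, was measured by 2 probes. The first (ILMN_2598916) read 11.22, 11.01 and 11.16 in embryo-minus-otic, 6.13, 5.96 and 6.08 in periotic tissue, and 7.37, 5.98 and 5.78 in OV. The second (ILMN_2767216) read 10.61, 10.53 and 10.49 in embryo-minus-otic, 5.87, 5.81 and 5.93 in periotic tissue, and 6.95, 5.61 and 5.70 in OV. Both probes had embryo-minus-otic arrays well clear of the rest and OV replicate 1 as the highest of the other arrays. Differences from OV were 4.76 (SE 0.275, *q* = 7.67e-09) and 4.46 (SE 0.239, *q* = 3.61e-09), which are fold Δ of 27.0 and 21.96. Without OV replicate 1 the log2 differences were 5.24 and 4.88, and the minimum fold Δ were at least 30.0 and at least 20.0. The alpha-actins are close paralogs, and whether each probe tells them apart was not tested.

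The natriuretic peptide genes encode hormones that heart muscle cells secrete. *Nppa*, the atrial peptide gene on chromosome 4, averaged 10.11 ± 0.26 in embryo-minus-otic (n = 3 in each group), 5.72 ± 0.080 in periotic tissue and 6.16 ± 0.57 in OV. Its fold Δ over OV was 15.4 (*q* = 2.63e-09 by limma), at least 14.8 without OV replicate 1, and at least 15.2 over periotic tissue. *Nppb*, the brain natriuretic peptide gene on the same chromosome, averaged 7.08 ± 0.16 in embryo-minus-otic and was above background on no other array, OV replicate 1 included. It was at least 1.83-fold higher than in OV (log2 difference 1.33, *q* = 1.52e-06).

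*Tnnc1*, the troponin C of cardiac and slow muscle on chromosome 14, was above background on 2 of 3 OV arrays, where the other cardiac genes were above it on 1 at most. It averaged 10.28 ± 0.13 in embryo-minus-otic, 5.98 ± 0.15 in periotic tissue and 6.55 ± 0.52 in OV, and was 13.3-fold higher than in OV (limma, *q* = 1.70e-09) and 16.04-fold higher without OV replicate 1. Between periotic tissue and OV it differed by -0.57 (*q* = 0.0668), which was called when OV replicate 3 was left out (-0.79, *q* = 0.00724) and when the arrays were not normalized (-0.58, *q* = 0.0417). *Myh6*, the alpha heavy chain on chromosome 14, averaged 7.94 ± 0.42 in embryo-minus-otic and was at least 3.34-fold higher than in OV (log2 difference 1.93, *q* = 5.22e-07). *Myh7*, the beta and slow heavy chain, was above background on 2 of 3 embryo-minus-otic arrays and no other, with a difference of 0.57 (*q* = 0.000314) and a bound of 1.04-fold. *Mybpc3*, the cardiac myosin-binding protein C on chromosome 2, averaged 6.995 ± 0.25 in embryo-minus-otic and was at least 1.74-fold higher (*q* = 2.62e-06).

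Not all cardiac probes followed. *Tnni3*, the troponin I of the mature heart, was above background on 0 of 9 arrays, as were the 3 probes of *Tnni3k* and a second *Myh6* probe (ILMN_2640008). The 2 *Myh6* probes disagreed, and which transcripts each one detects was not tested. *Tnni1*, the troponin I of slow skeletal muscle and of the embryonic heart, is given with the skeletal class.

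**Figure D2:**
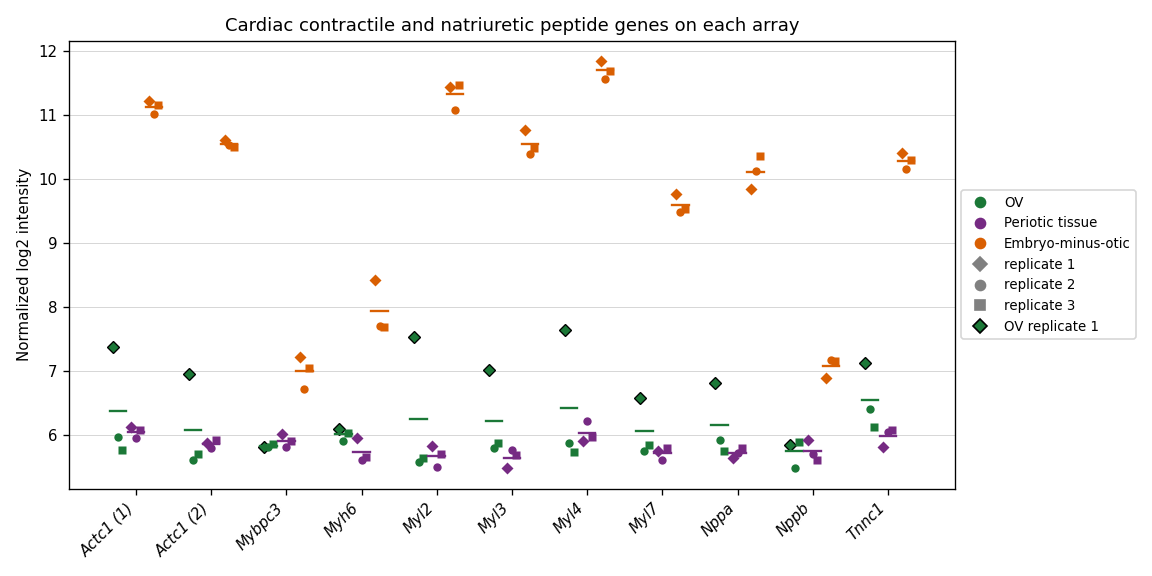
Normalized log2 intensity (y axis) of the 11 cardiac probes above background on all arrays of a tissue (x axis), with 1 point per array, shape for the replicate number, a bar at each group mean, and OV replicate 1 outlined in black; (1) and (2) are the probes of *Actc1* in the order given in the text. All embryo-minus-otic points lie above the OV and periotic points of the same probe. The drawn probes passed the background filter through embryo-minus-otic alone, which favours this order. Cardiac probes that failed it, such as those of *Tnni3* and *Tnni3k*, are not drawn. OV replicate 1 lies above the other OV arrays for *Myl4* (7.65) and *Myl2* (7.53) but not for *Mybpc3* (5.81).

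In the skeletal class, actin, light chain and troponin genes were higher in embryo-minus-otic, and the probes for adult fast heavy chains were not above background. *Acta1*, skeletal alpha-actin on chromosome 8, measured 9.34, 9.09 and 9.15 in embryo-minus-otic, 6.03, 6.02 and 5.86 in periotic tissue, and 6.05, 5.67 and 5.66 in OV. No OV or periotic array was above background, and *Acta1* was at least 7.97-fold higher than in OV (log2 difference 3.40, SE 0.114, *q* = 7.46e-11) and at least 8.08-fold higher than in periotic tissue. Its promoter is the second of the CArG-bearing sequences shown.

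*Myl1*, the fast skeletal essential light chain on chromosome 1, measured 9.50, 9.31 and 9.34 in embryo-minus-otic, 6.40, 6.53 and 6.48 in periotic tissue, and 6.76, 6.28 and 6.04 in OV. It was above background on all 3 periotic arrays and 2 of 3 OV arrays, so signal was measured in each tissue, and the difference between periotic tissue and OV was 0.11 (95% interval -0.18 to 0.41, *q* = 0.78). Its fold Δ was 8.12 over OV (log2 difference 3.02, SE 0.139, *q* = 8.61e-10) and 7.51 over periotic tissue. A second *Myl1* probe (ILMN_2694907) read 5.88, 5.77 and 5.91 in embryo-minus-otic, 5.62, 5.68 and 5.65 in periotic tissue, and 5.77, 5.81 and 5.76 in OV, above background on 0 of 9 arrays.

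Troponin genes of slow muscle followed. *Tnnt1*, slow troponin T on chromosome 7, measured 8.10, 7.66 and 7.68 in embryo-minus-otic, 6.51, 6.52 and 6.31 in periotic tissue, and 6.29, 6.28 and 5.95 in OV, and was 3.12-fold higher than in OV (limma, *q* = 2.17e-07). *Tnni1*, on chromosome 1, measured 7.06, 6.83 and 6.83 in embryo-minus-otic, 5.77, 5.75 and 5.56 in periotic tissue, and 5.89, 5.62 and 5.48 in OV. It was above background in embryo-minus-otic alone and was at least 1.63-fold higher than in OV (log2 difference 1.25, SE 0.113, *q* = 1.23e-06).

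*Tnnc2*, fast troponin C on chromosome 2, averaged 6.71 ± 0.19 in embryo-minus-otic and 5.99 ± 0.22 in OV, a 1.66-fold difference (limma, *q* = 0.000541). *Tnni2*, fast troponin I, averaged 6.53 ± 0.038 in embryo-minus-otic and was at least 1.25-fold higher than in OV (limma, *q* = 0.000274). *Tnnt3*, *Mybpc2* and the adult fast heavy chain genes *Myh1* (2 probes), *Myh2* and *Myh4* were above background on 0 of 9 arrays. *Myh8*, the perinatal heavy chain, had 1 probe above background on 2 embryo-minus-otic arrays, with a difference from OV of 0.31 (95% interval 0.08 to 0.54, *q* = 0.0876), and another on none.

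**Figure D3:**
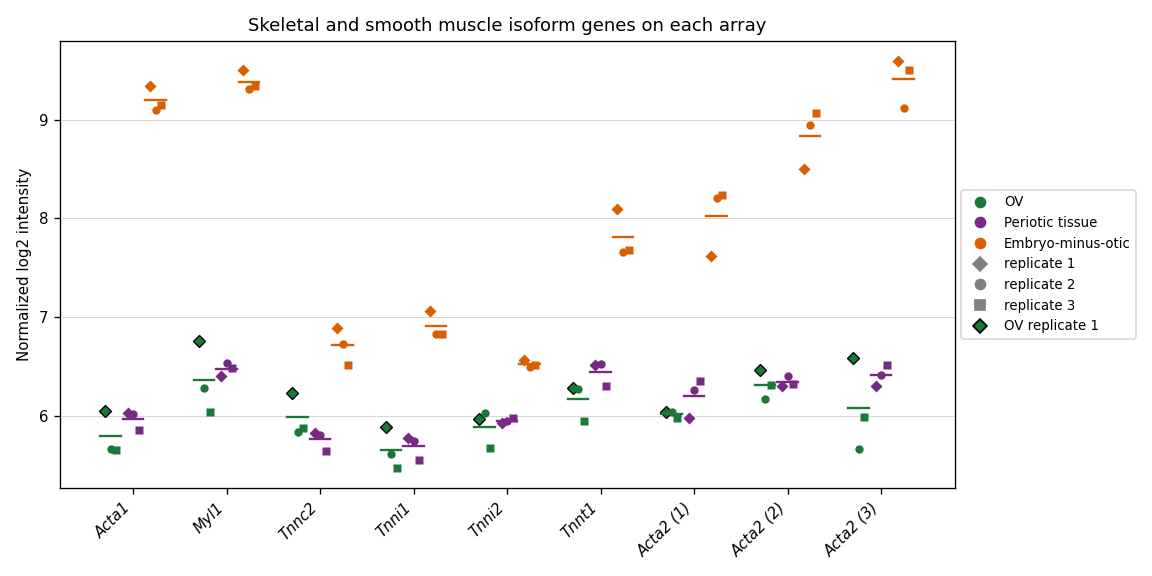
Normalized log2 intensity (y axis) of the 6 skeletal and 3 smooth muscle probes above background on all arrays of a tissue (x axis), drawn as for the cardiac probes; (1), (2) and (3) are the probes of *Acta2*. Embryo-minus-otic points lie above all others for every probe drawn, while 2 of the 3 *Acta2* probes are lowest on embryo-minus-otic replicate 1. Every drawn probe passed the background filter in embryo-minus-otic and none in OV, which favours this order. Skeletal and smooth muscle probes that failed it, such as those of *Myh1*, *Cnn1* and *Myh11*, are not drawn.

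Of the genes shared by muscle types, those for Z-disc alpha-actinin, titin, the M-band protein myomesin and the desmin filament had probes higher in embryo-minus-otic. *Actn2*, the Z-disc alpha-actinin on chromosome 13, measured 8.35, 7.99 and 8.04 in embryo-minus-otic, 5.99, 5.79 and 5.90 in periotic tissue, and 6.02, 5.73 and 6.03 in OV. It was at least 3.81-fold higher than in OV (log2 difference 2.20, SE 0.114, *q* = 2.58e-09). *Des*, the muscle intermediate filament gene on chromosome 1, measured 8.86, 8.48 and 8.36 in embryo-minus-otic, 6.33, 6.22 and 6.26 in periotic tissue, and 6.55, 6.23 and 6.36 in OV. Unlike *Actn2*, it was above background on all 9 arrays, and it was 4.55-fold higher than in OV (log2 difference 2.19, SE 0.122, *q* = 5.10e-09).

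*Ttn* encodes titin, the spring that runs from Z-disc to M-band, and had 2 probes. The first (ILMN_2416670) read 7.70, 7.25 and 7.73 in embryo-minus-otic, 5.93, 5.66 and 5.78 in periotic tissue, and 6.18, 5.71 and 5.97 in OV. The second (ILMN_3128792) read 7.99, 7.26 and 7.88 in embryo-minus-otic, 5.88, 5.78 and 6.002 in periotic tissue, and 5.96, 5.81 and 5.80 in OV. The probes were alike in layout, with fold Δ over OV of at least 2.56 (*q* = 6.72e-07) and at least 2.85 (*q* = 3.11e-07 by limma). *Myom1*, the M-band protein whose promoter is the last shown, averaged 7.08 ± 0.31 in embryo-minus-otic and was at least 1.84-fold higher than in OV (*q* = 8.62e-06). A second *Myom1* probe and the probe of *Myom2* were above background on 0 of 9 arrays.

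The tropomyosins followed another layout. *Tpm1*, on chromosome 9, has striated, smooth and non-muscle isoforms and measured 11.38, 11.31 and 11.28 in embryo-minus-otic, 10.53, 10.43 and 10.55 in periotic tissue, and 11.23, 11.22 and 11.08 in OV. Periotic tissue was the low group, 1.60-fold below OV (log2 difference -0.68, SE 0.0846, *q* = 3.71e-05) and 1.77-fold below embryo-minus-otic (*q* = 1.24e-05). Embryo-minus-otic against OV gave 0.14 (95% interval -0.04 to 0.32, *q* = 0.385). With median normalization the *Tpm1* difference between embryo-minus-otic and periotic tissue was 0.57 and was not called (*q* = 0.0638).

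*Tpm2*, the tropomyosin of skeletal and smooth muscle on chromosome 4, had 3 probes that disagreed. The first (ILMN_2482209) averaged 5.93 ± 0.11 in OV, 6.24 ± 0.063 in periotic tissue and 6.77 ± 0.12 in embryo-minus-otic (n = 3 each), at least 1.49-fold higher in embryo-minus-otic than in OV by limma (*q* = 1.07e-05). Its difference between periotic tissue and OV was 0.31 (*q* = 0.0477), and this call was lost when any of 6 arrays was left out (OV replicates 2 and 3, each periotic array and embryo-minus-otic replicate 2). It was also lost with median normalization (*q* = 0.149) and with none (*q* = 0.745). The second probe (ILMN_2487170) averaged 7.62 ± 0.080, 7.67 ± 0.20 and 8.003 ± 0.060 in the same order, with a difference from OV of 0.38 (*q* = 0.021) that missed the threshold in 5 alternatives, among them leaving out OV replicate 2 (*q* = 0.0631), OV replicate 3 (*q* = 0.0945) or embryo-minus-otic replicate 3 (*q* = 0.0744). Its difference from periotic tissue was called only without periotic replicate 3 (0.44, *q* = 0.0127, compared with 0.33 and *q* = 0.0785). The third was above background on 0 of 9 arrays.

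Among the smooth muscle genes, *Acta2* alone was above background. It encodes smooth muscle alpha-actin, which the early heart tube also uses, and had 3 probes. The first (ILMN_2710353) read 7.62, 8.21 and 8.23 in embryo-minus-otic, 5.98, 6.26 and 6.36 in periotic tissue, and 6.04, 6.04 and 5.98 in OV. The second (ILMN_2710354) read 8.50, 8.94 and 9.07 in embryo-minus-otic, 6.30, 6.41 and 6.33 in periotic tissue, and 6.46, 6.17 and 6.32 in OV. The third (ILMN_2923445, chromosome 19) read 9.59, 9.12 and 9.51 in embryo-minus-otic, 6.30, 6.42 and 6.52 in periotic tissue, and 6.59, 5.66 and 5.99 in OV. All 3 probes had every embryo-minus-otic array above every other array, but only the first pair was lowest on embryo-minus-otic replicate 1.

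Differences of *Acta2* from OV were 2.00 (SE 0.143, *q* = 8.15e-08), 2.52 (SE 0.128, *q* = 2.27e-09) and 3.33 (SE 0.180, *q* = 4.01e-09), with fold Δ of at least 3.53, 5.74 and 10.03. The third probe was higher in periotic tissue than in OV only when OV replicate 1 was left out (log2 difference 0.59, *q* = 0.0168, compared with 0.33 and *q* = 0.358 with it). *Cnn1* (calponin), *Myh11* (the smooth muscle heavy chain) and *Tagln* (transgelin) were above background on 0 of 9 arrays. The *Tagln* difference from OV was 0.29 (95% interval 0.09 to 0.49, *q* = 0.0577).

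Of the non-muscle probes, 5 of 8 were above background on all 9 arrays, at least 1 for each gene, and this was the only class with a probe lower in embryo-minus-otic than in OV. *Myh9*, non-muscle heavy chain IIA, measured 9.75, 9.64 and 9.90 on the OV arrays, 9.07, 8.72 and 9.36 in periotic tissue, and 9.13, 9.10 and 9.20 in embryo-minus-otic. The OV arrays lay above all 6 others. *Myh9* was 1.53-fold higher in OV than in embryo-minus-otic (log2 difference -0.62, SE 0.131, *q* = 0.0047) and 1.64-fold higher than in periotic tissue (-0.71, *q* = 0.00149). With median normalization the periotic difference was -0.66 and was not called (*q* = 0.0847).

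*Myh10*, non-muscle heavy chain IIB, measured 9.75, 9.62 and 10.05 on the OV arrays, 9.77, 9.76 and 9.52 in periotic tissue, and 9.46, 9.52 and 9.36 in embryo-minus-otic. OV lay above embryo-minus-otic without overlap, with a difference of -0.36 (SE 0.113, *q* = 0.0546) that was called in 4 of the alternatives. These were median normalization (-0.56, *q* = 0.0432), a fit of only probes above background (*q* = 0.0481), and leaving out OV replicate 2 (*q* = 0.0285) or periotic replicate 3 (*q* = 0.0439). *Myl6*, the essential light chain of smooth muscle and non-muscle cells on chromosome 10, measured 12.08, 11.86 and 11.52 on the OV arrays, 12.12, 12.21 and 11.86 in periotic tissue, and 11.92, 11.38 and 12.02 in embryo-minus-otic. Its groups overlapped, and its differences from OV had 95% intervals of -0.39 to 0.31 in embryo-minus-otic and -0.11 to 0.59 in periotic tissue.

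*Tpm3*, a tropomyosin of slow skeletal muscle and non-muscle cells on chromosome 3, had 1 of 4 probes above background (ILMN_2444316), which measured 10.86, 11.08 and 10.88 on the OV arrays, 10.99, 11.31 and 11.08 in periotic tissue, and 10.73, 11.48 and 11.10 in embryo-minus-otic. The 3 others were above background on 0 of 9 arrays. On the OV, periotic and embryo-minus-otic arrays, in that order, ILMN_2426965 read 5.64, 5.67 and 5.73, then 5.74, 5.69 and 5.60, then 5.67, 5.55 and 5.77. ILMN_2426966 read 6.13, 6.02 and 5.83, then 5.97, 5.67 and 5.98, then 5.85, 5.87 and 5.95, and ILMN_2426967 read 5.80, 5.88 and 5.56, then 5.91, 5.67 and 5.84, then 5.75, 5.69 and 5.69. These are background levels and give no order of tissues. *Tpm4*, a non-muscle tropomyosin, averaged 12.49 ± 0.049 in OV, 12.48 ± 0.13 in periotic tissue and 12.59 ± 0.21 in embryo-minus-otic. Neither gene was called, with differences between embryo-minus-otic and OV of 0.17 (95% interval -0.15 to 0.48) for *Tpm3* and 0.10 (95% interval -0.13 to 0.33) for *Tpm4*.

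Without OV replicate 1, every member probe called against OV kept its direction and its call in limma. In the cardiac class, *Myh6* was at least 3.30-fold, *Nppb* at least 1.82-fold, *Mybpc3* at least 1.72-fold and *Myh7* at least 1.04-fold higher in embryo-minus-otic. In the skeletal class, *Acta1* was at least 7.87-fold, *Myl1* 9.23-fold, *Tnnt1* 3.23-fold, *Tnni1* at least 1.62-fold, *Tnnc2* at least 1.42-fold and *Tnni2* at least 1.25-fold higher. Of the shared genes, *Actn2* was at least 3.76-fold, *Des* 4.803-fold, *Ttn* at least 2.54-fold and at least 2.81-fold, *Myom1* at least 1.83-fold and *Tpm2* at least 1.48-fold (first probe) and 1.34-fold (second probe) higher. The *Acta2* probes were at least 3.49-fold, 5.997-fold and at least 9.10-fold higher. *Myh9* differed by -0.62 (limma, *q* = 0.0171) between embryo-minus-otic and OV and by -0.72 (*q* = 0.00684) between periotic tissue and OV, and *Tpm1* by -0.65 (*q* = 0.000409) and the first *Tpm2* probe by 0.37 (*q* = 0.0363) between periotic tissue and OV.

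The signal that set OV replicate 1 apart was then expressed as a share of the embryo-minus-otic signal, a calculation chosen after its values were seen. For each probe, the excess of 1 OV array over the mean of the other OV arrays was divided by the excess of the embryo-minus-otic mean over that same mean, on the linear scale. The 8 cardiac probes above background on OV replicate 1 were those of *Actc1* (both), *Myl2*, *Myl3*, *Myl4*, *Myl7*, *Nppa* and *Tnnc1*, and their shares lay between 4.42% and 5.62%, with a median of 5.13%. These 8 were picked by their signal on the array described, so the range is a description of them alone. All 11 cardiac probes above background in embryo-minus-otic ran from -1.73% (*Mybpc3*) and 2.87% (*Myh6*) to 6.48% (*Nppb*), with a median of 5.07%, the 5 shared probes with a difference above 1 had 4.41%, the 4 such skeletal probes 5.71% and the 3 *Acta2* probes 3.22%. These shares depend on the normalization. On the deposited signal the median was 6.12% for the 8 cardiac probes, 8.61% for the shared, 9.26% for the skeletal and 5.80% for the *Acta2* probes, and *Mybpc3* had 5.96%. Since each array is set against the other OV arrays, an excess on 1 array lowers the values of the others.

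Other heart and embryo genes on that array were read beside it. The summed cardiac intensity was 1646 on OV replicate 1, 969 and 965 on the other OV arrays, 941 to 985 on the periotic arrays, and 13828 to 16219 in embryo-minus-otic. The sum is over all 17 cardiac probes with no background subtracted. OV replicates 2 and 3 had 1 and 0 of them above background, so their sums are mostly background. *Nkx2-5* (a heart transcription factor), *Csrp3* and *Ankrd1* (heart Z-disc and stress-response genes), *Wt1* (an epicardial gene) and *Afp* (a liver gene) were above background on no OV array. *Gata6* (a heart and endoderm transcription factor) was above it on OV replicate 1 alone among OV arrays, at 6.30. Below background, *Nkx2-5* (5.97), *Wt1* (6.07), *Afp* (5.86) and both *Ankrd1* probes read highest on OV replicate 1 among OV arrays, while the *Csrp3* probes differed. In embryo-minus-otic these genes were dimmer than the cardiac probes above background on OV replicate 1. Whether these genes carried a small share of that signal below background was not tested. Erythroid genes, which mark red blood cells, summed to 41527 on OV replicate 1 and to 30889 and 16960 on the others, and epicardial genes had 0 of 9 probes above background on every OV array. The part of blood in this signal was not tested.

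**Figure D4:**
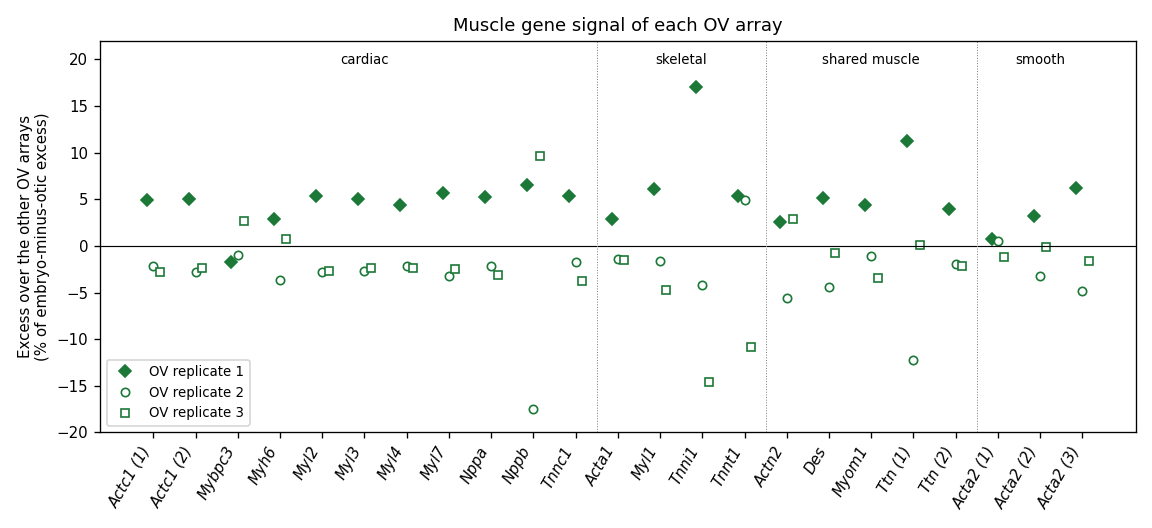
Excess of each OV array over the mean of the other OV arrays as a percent of the embryo-minus-otic excess (y axis), for the contractile probes with a called log2 difference above 1 (x axis, by class). OV replicate 1 (filled) lies between 4.42% and 5.62% for the 8 cardiac probes above background on it, and dim probes such as *Tnni1* (17.1%) and *Nppb* (-17.5% on OV replicate 2) scatter more widely.

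The embryo-minus-otic arrays also differed among themselves. Each probe above background on all 3 was set against its own group mean. Replicate 1 was above the mean for 9 of 11 cardiac probes (median deviation 0.12), 6 of 6 skeletal probes (0.15) and 7 of 8 shared probes (0.18), while over all 10564 such probes of the array the median deviation was 0.0048. It was above the mean for 1 of 3 *Acta2* probes (median -0.34), and *Nppa* and *Nppb* were lowest on it, at 9.84 and 6.89. Replicate 2 was above the mean for 2 of 11 cardiac probes (median -0.13) and 1 of 8 shared probes (-0.11). The median deviations were small beside the median cardiac difference from OV, 1.93. Dimmer cardiac probes spread more, with *Myh6* from 7.69 to 8.43 (difference from OV 1.93) and *Mybpc3* from 6.72 to 7.22 (1.16). The labels do not give how much heart or somite went into each pool.

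**Figure D5:**
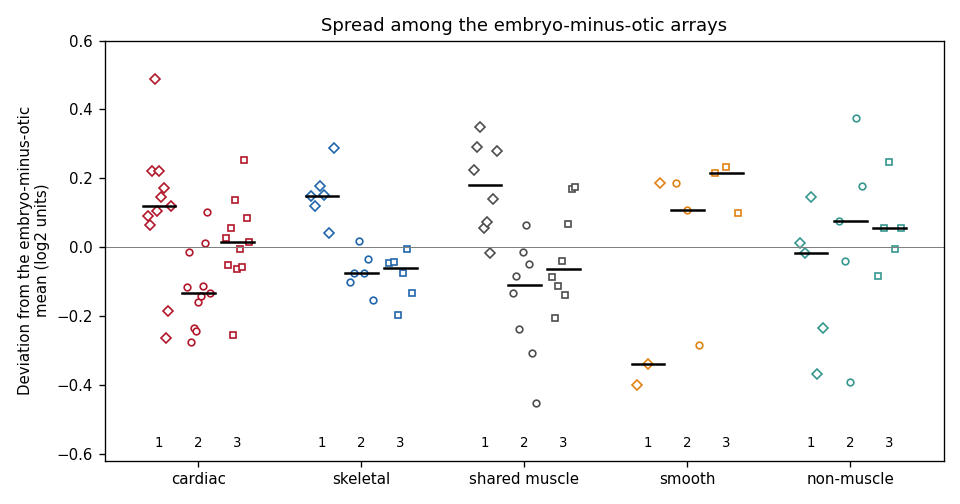
Deviation of each embryo-minus-otic array from the group mean (y axis, log2 units) for the contractile probes above background on all 3 arrays, by isoform class and replicate number (x axis), with bars at the medians. Replicate 1 has medians of 0.12, 0.15 and 0.18 in the cardiac, skeletal and shared classes and -0.34 for *Acta2*.

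Genes that work with these proteins were read from lists, by the number of probes called, beside 5.51% of all probes called higher and 5.89% called lower in embryo-minus-otic than in OV. Counts such as 2 of 40 or 2 of 30 are near those shares. A count such as 2 of 15 is a larger share but rests on few probes. No count of 1 or 2 is read as a result about its list. Of 40 probes for 27 other sarcomere and Z-disc genes, embryo-minus-otic was higher than OV for 16 and lower for 2. The lower probes were both of *Actn3* (-0.61, *q* = 0.000208 and -0.53, *q* = 0.00494 by limma). *Csrp3*, a muscle LIM protein of the Z-disc, was highest in difference, at least 5.54-fold (*q* = 1.50e-10 by limma), with another of its probes at least 2.80-fold, and *Ankrd1*, a cardiac ankyrin repeat protein, was at least 4.34-fold higher (*q* = 7.94e-09). Of 46 probes for calcium handling and conduction, 9 were higher and 0 lower (3 lower at an unadjusted p below 0.05 by limma). These were led by *Gja5* (an atrial and arterial gap junction protein, 1.66), *Slc8a1* (the sodium-calcium exchanger, 1.06) and *Atp2a2* (the sarcoplasmic reticulum calcium pump, 0.99), in log2 differences from OV. Of 15 probes for muscle energy metabolism, 5 were higher and 2 lower. *Pgam2* and *Cox6a2*, muscle forms of a glycolytic enzyme and of a respiratory chain subunit, were at least 2.56-fold and 2.11-fold higher. *Fabp3*, a fatty acid binding protein, was 0.90 higher in log2. The 2 lower probes were those of *Eno3* (-0.80, *q* = 6.55e-05) and *Mb* (-0.33, *q* = 0.0326 by limma), both higher in OV.

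The transcription factors of the muscle lineages were read in the same way. Of 26 probes for heart transcription factors, 6 were higher in embryo-minus-otic than in OV and 0 lower (2 lower at an unadjusted p below 0.05 by limma). *Gata6* differed by 3.06 (*q* = 1.78e-10), *Mef2c* by 1.32 (*q* = 7.37e-06) and *Nkx2-5* by at least 1.51-fold (*q* = 4.11e-05, limma). Of 16 probes for skeletal myogenic regulators, 2 were higher, *Myf6* (at least 1.17-fold) and *Myog* (at least 1.08-fold), both of them factors of skeletal muscle differentiation, and 1 was lower, *Six4* (-0.59), a homeobox gene that the otic region also uses. Of 32 probes for smooth muscle genes and serum response factor cofactors, 7 were higher and 3 lower. The largest difference in that list was of *Mylk*, the myosin light chain kinase, which was higher in OV by both probes, with differences of -2.12 (*q* = 2.42e-08) and -2.05 (*q* = 2.58e-07), and *Cnn2*, a calponin of many cell types, was 0.97 higher in embryo-minus-otic. Of 30 probes for the non-muscle actin cytoskeleton, 2 were higher, *Msn* (moesin, 0.62) among them, and 4 lower, and the widest difference was of *Actb*, which was not called (0.72, *q* = 0.156).

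Lists for other tissues gave the counts beside which these stand. Embryo-minus-otic was higher than OV for 9 of 12 erythroid probes, 7 of 14 endothelial probes, 7 of 11 liver and endoderm probes, 6 of 9 epicardial probes and 8 of 12 hindbrain and periotic probes, and lower for 0 in each, as it was at an unadjusted p below 0.05 by limma. In periotic tissue the erythroid list was higher than OV for 9 of 12 probes and the endothelial list for 6 of 14, where 5.15% of all probes were called higher and 5.07% lower. The cardiac class was higher for 0 of 17 (0 also at an unadjusted p below 0.05 by limma, with 3 lower), which is near that share. On each periotic array 9 of 12 erythroid and 11 of 14 endothelial probes were above background. Cardiac probes were above it once on these arrays, *Myl4* on periotic replicate 2.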

How the data were processed

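RNA from 9 pools of E10.5 CD-1 tissue, 3 pools per group, was measured on Illumina MouseRef-8 v2.0 arrays of 1 colour. The authors amplified the RNA into biotin-labelled cRNA, scanned the arrays on an Illumina Beadstation and deposited the GenomeStudio average signal of each probe and array, an intensity without normalization between arrays. They also deposited a detection p-value for each probe and array. Groups were taken from the tissue in each array's label. Signals were log2 transformed with a floor of 1, which changed no value, and quantile normalized as in the study's methods, here without the neonatal arrays. All 25697 probes were fitted in 1 limma 3.58.1 model of the 3 groups in R 4.3.3, with Benjamini-Hochberg adjustment of each comparison over the whole array. Scripts were tested on simulated data. Probes of a gene were not averaged, and symbols and chromosomes are those of the deposited annotation. The members, their classes and the gene lists were chosen with earlier results of these arrays known. Every member above background on all arrays of a group is named, and values on each array are given for up to 4 such probes per class with the widest difference between group means, for all probes of their genes and for *Tpm1*. From each gene list the 3 probes with the largest difference between embryo-minus-otic and OV were to be named, and those of the lists for other tissues are given as counts only. As alternatives, the array signals were processed with neqc (offset 16), scaled to a common median or left as deposited. Other fits used only probes above background, only 2 groups, a replicate block or 8 of the 9 arrays, and a detection p of 0.05 was tried. Nothing in the labels or methods states that same-numbered pools are separate litters, so the spread between pools may be partly technical. The number of arrays limits the precision. Slides and bead counts were not analysed here.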

Additional observations from a re-analysis of the deposited data

How the results depend on the processing

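The counts of contractile probes higher in embryo-minus-otic were stable: over all alternatives that left out 1 array they ranged from 27 to 29 against OV and from 28 to 29 against periotic tissue, and no called difference of a named probe changed sign under any alternative. The small counts moved. Probes higher in periotic tissue than OV (1) numbered 0 with median normalization, 0 with no normalization and 0 with the replicate number as a block, and 0 to 2 with 1 array left out. Probes lower in periotic tissue than OV (2) numbered 1 with median normalization and 5 with none, and 2 to 3 with 1 array left out. The 3 added without normalization were *Myl2*, *Myl3* and *Tnnc1*, all above background on OV replicate 1. Probes lower in embryo-minus-otic than OV (1) numbered 2 with median normalization and 2 when only probes above background were fitted, in both through *Myh10*, and 1 to 2 with 1 array left out. The cause of these moves was not tested. The main fit did not pair the pools by number, since nothing states that the numbers pair them. Same-numbered arrays correlated in their deviations from the group means at r between 0.011 and 0.234, all positive. Each of the 9 arrays correlated best with an array of its own number, and what the numbers share was not tested. With the replicate number as a block the counts were 28 higher and 1 lower in embryo-minus-otic against OV, 28 higher against periotic tissue, and 3 lower in periotic tissue than OV, where *Tnnc1* gained a call (*q* = 0.0376) and *Tpm2* lost its call (*q* = 0.052). At a detection p of 0.05 in place of 0.01, 35 probes in place of 33 were above background. Signal near background limits *Myh7*, *Myh8*, *Tnni2*, *Tagln* and one *Tpm2* probe, whose levels lay close to the dimmest level above background.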
